A study of Bos taurus with 15 samples.

Results

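The casein gene cluster is the stretch of bovine chromosome 6 that carries the 4 casein genes, CSN1S1, CSN2, CSN1S2 and CSN3. It was taken here as chr6:87130000-87400000 on the assembly UMD3.1, 270 kb long, and its members were every cytosine position that a library listed inside these bounds, whatever its methylation. The 15 libraries together listed 780 such positions of 27136487 in the whole series. CSN1S1 (chr6:87141556-87159096), CSN2 (chr6:87179502-87188025), CSN1S2 (chr6:87262457-87280936) and CSN3 (chr6:87378398-87392750) have approximate UMD3.1 spans, and no annotation of that build was used, so exons, introns and untranslated regions were not told apart. All 4 symbols were found in the RefSeq gene list of a later assembly, ARS-UCD2.0. In gene order there, HSTN and STATH lie between CSN2 and CSN1S2, PRR27 and ODAM lie between CSN1S2 and CSN3, SULT1E1 is the protein-coding gene before CSN1S1 and CABS1 the one after CSN3.

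Caseins are the main proteins of ruminant milk. CSN1S1 and CSN1S2 encode the alpha-s1 and alpha-s2 caseins and CSN2 encodes beta-casein, all of them calcium-binding phosphoproteins, whereas CSN3 encodes kappa-casein, which coats the casein micelle and keeps it in solution. The genes are transcribed at very high rates in the secretory epithelium of the lactating mammary gland and are silent in liver. DNA methylation at CpG dinucleotides of the cluster is generally lower in tissue that makes casein than in tissue that does not.

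The study asked how heat stress of the dam in late gestation marks the DNA of her offspring. The assay was reduced representation bisulfite sequencing (RRBS), in which DNA cut at MspI and TaqαI sites is treated with bisulfite so that unmethylated cytosines read as thymine. All animals were Holstein. The mammary libraries analysed here came from biopsies of 3 heifers cooled in utero (IUCL-H) and 3 heifers heat stressed in utero (IUHT-H), taken on day 21 of the first lactation. The liver libraries analysed here came from 5 bull calves cooled in utero (IUCL-B) and 4 heat stressed in utero (IUHT-B), sampled at birth. Each of these animals gave 1 library, and other animals of the study were not analysed here. Dams of the IUCL groups had active cooling and dams of the IUHT groups did not. Heifers are numbered in the order of their records and calves keep their own numbers, which are 1 to 5 for IUCL-B and 2 to 5 for IUHT-B. Tissue, sex and age cannot be told apart, because every mammary sample came from a lactating female and every liver sample from a newborn male. The samples were whole tissue, so a lower level in every cell and a different mix of cell types cannot be told apart either, and no measurement of cell types was used here.

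The libraries differed in kind as well as in tissue. Heifer libraries held 13949097 to 20240625 calls (1 read at 1 cytosine), spread over 7552567 to 9753540 positions, and the median position had 1 read. Calf libraries held 10484911 to 38221835 calls on 307023 to 5958861 positions, the median position had 1 to 11 reads, and IUCL-B 4 and 5 covered more positions than any other calf. The methylation level of a region is given as the mean, over the positions a library listed there, of the percent of calls that were methylated, so that each position weighed alike.

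Coverage of the casein cluster was thin. The mammary libraries listed 191, 216 and 151 positions in IUCL-H 1 to 3 and 184, 200 and 250 in IUHT-H 1 to 3. The liver libraries listed 26, 22, 22, 93 and 127 positions in IUCL-B 1 to 5 and 30, 8, 12 and 4 in IUHT-B 2 to 5. Of all 780 positions, 640 were listed in a heifer, 268 in a calf and 128 in both tissues. Only 9 were listed in every heifer and none was listed in every calf. The cluster was poor in listed positions for its size, with a mean of 199 per heifer against 546 in the median window of 270 kb, and 7.41% of 9844 windows had as few. Those sparsely covered windows had a median level of 64.6% in the heifers, and 59.0% of them were at or below the 65.8% of the cluster. In the heifers no position had more than 8 reads and 74.5% of the listings rested on 1 read.

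In the calves 79 positions had more than 10 reads in at least 1 animal, with up to 385 reads, and these deep positions were nearly all in a single state. Among the 83 listings of more than 10 reads, 62 were fully methylated, 18 fully unmethylated and 3 in between. A few positions therefore held most of the calls in some calves, with 98.6% of the cluster's calls at the deepest 3 positions in IUHT-B 3 and 99.6% in IUHT-B 5. Reads carried no molecular identifiers, so whether the reads of a deep position came from 1 molecule was not tested. Intervals given below for calls cover counting error only.

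The casein cluster was mostly methylated in every animal. In the heifers its level was 62.2%, 68.6% and 69.7% in IUCL-H 1 to 3 and 67.3%, 61.2% and 65.7% in IUHT-H 1 to 3. In the calves it was 63.7%, 81.8%, 68.2%, 89.9% and 83.7% in IUCL-B 1 to 5 and 73.3%, 60.4%, 66.7% and 75% in IUHT-B 2 to 5. The heifers lay close together and inside the range of the calves.

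The cluster was less methylated than its surroundings. The 270 kb on each side (chr6:86860000-87129999 and chr6:87400001-87670000, both together) had a mean level of 73.5% ± 2.30 (SD, n = 6) in mammary gland against 65.8% ± 3.46 in the cluster. The cluster was lower in 6 of 6 heifers, with a cluster minus flanks difference of -12.8, -3.07 and -4.82 points in IUCL-H 1 to 3 and -3.12, -11.5 and -10.96 points in IUHT-H 1 to 3. The mean difference was -7.72 points ± 4.52 (SD, n = 6; two-sided exact sign-flip permutation test, p = 0.0313, the smallest that 6 animals can give). Against the flank before CSN1S1 alone it was -6.18 points (exact p = 0.0625), and against the flank after CSN3 alone it was -9.10 points (exact p = 0.0313). The direction was common in the genome, since 26.0% of 9782 windows of 270 kb were lower than their neighbours in all 6 heifers, and 11.6% had a mean difference as low as that of the cluster. Within positions listed in both tissues the difference in the heifers was -0.503 points (exact p = 0.719), and with positions of at least 2 reads it was -5.28 points (exact p = 0.156). With at least 5 reads it was -21.0 points in the 5 heifers that had such positions (exact p = 0.0625, the smallest that 5 animals can give). The size of the difference thus depended on which positions were used.

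**Figure D1:**
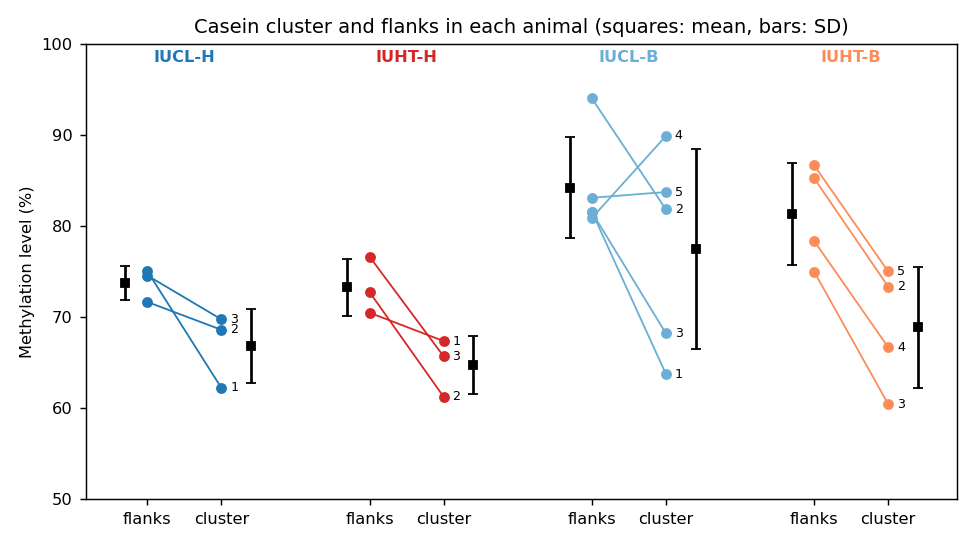
Methylation level (%) of the 270 kb flanks and of the casein cluster in each animal, joined by a line and numbered as in the text, in the 4 groups; black squares are group means and bars are SD, and the axis starts at 50%. All 6 heifers and 7 of 9 calves have the lower value in the cluster, and IUCL-B 4 and 5 do not.

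In liver the flanks had a mean level of 82.9% ± 5.41 (SD, n = 9) and the cluster 73.6% ± 9.91. The cluster was lower in 7 of 9 calves, with differences from -17.8 to -11.7 points, and higher in IUCL-B 4 by 9.02 points and in IUCL-B 5 by 0.631 points. The mean difference was -9.29 points ± 8.499 (SD, n = 9; exact sign-flip permutation test, p = 0.0156). As many calves or more were lower in 22.6% of 9540 windows, and 9.51% of windows had as low a mean difference. The 2 calves without the lower value were those with the most positions, 93 and 127 in the cluster. The flank before CSN1S1 was the more methylated one in liver, at 88.0% ± 6.46 (SD, n = 9), a level that 98.7% of windows did not exceed, and the flank after CSN3 was at 77.7% ± 6.94. Against the flank after CSN3 alone the liver difference was -4.02 points (exact p = 0.207), and with every call weighing alike it was -3.13 points (exact p = 0.801). Against the flank before CSN1S1 alone it was -14.4 points (exact p = 0.0117), and against flanks of 100 kb it was -14.6 points (exact p = 0.0469).

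Between the tissues the cluster itself did not separate. The mammary minus liver difference was -7.85 points (65.8% ± 3.46, n = 6, against 73.6% ± 9.91, n = 9; two-sided exact permutation test, p = 0.0883), and the groups overlapped. It was -9.51 points without IUHT-B 3 (exact p = 0.0343), which listed 8 positions. Restricted to the 128 positions listed in both tissues the direction turned, with 73.0% ± 3.31 in mammary gland and 69.8% ± 13.6 in liver, a difference of 3.18 points (exact p = 0.592). The cluster minus flanks difference was 1.57 points nearer to 0 in mammary gland than in liver (exact p = 0.703). It was 5.60 points nearer without IUCL-B 4 and 5 (exact p = 0.00932), and with the flank after CSN3 alone the order turned, at -5.09 points for mammary minus liver (exact p = 0.228).

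The same comparison was set beside all other windows of 270 kb with limma, with the number of positions as weights. Under the requirement of 10 positions in every animal the casein window was not tested, because IUHT-B 3 and 5 had fewer. Among the 7006 windows that passed, 18.7% were called at an adjusted p of 0.05 or less (18.4% lower in mammary gland). With a requirement of 3 positions, chosen after seeing the data, 9600 windows were tested and 21.8% were called. The casein window then had a mammary minus liver difference of -10.6 points (SE 4.32, limma adjusted p = 0.0899) against a median of -4.21 points over all windows, and 13.5% of windows were at or below it. Without IUCL-B 4 and 5 its difference was -4.71 points (limma adjusted p = 0.476). In that fit 1009 of the 9600 windows were called, and 49.2% of windows were at or below the casein window. The casein window was therefore not called, and 0 of its 10 kb bins had enough positions for a test between tissues, in which 7.41% of 38205 bins of the genome were called (5.53% lower in mammary gland).

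**Figure D2:**
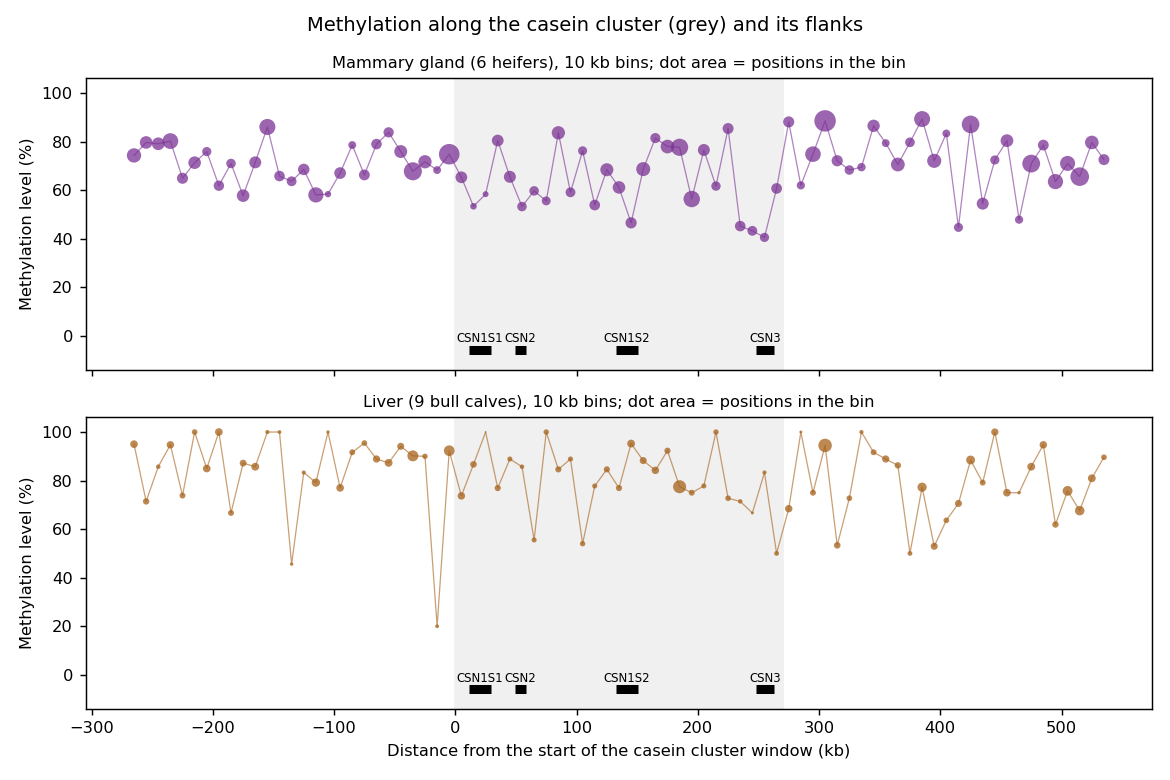
Pooled methylation level (%) in bins of 10 kb along the casein cluster (grey) and its flanks, against distance from the start of the cluster in kb, for mammary gland (top, 6 heifers) and liver (bottom, 9 calves); dot area shows the number of listed positions and black bars the 4 genes. The low mammary bins of the cluster lie inside CSN1S2, at CSN3 and before CSN3 (40.5% to 46.5% pooled). Of 2 low bins of the right flank, the one at 44.6% pooled lies within that range and the one at 47.8% just above it. The liver bins rest on few positions each.

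Inside the cluster the mammary level was uneven. Among the 27 bins of 10 kb the lowest in the heifers was chr6:87370000-87379999, which holds the start of CSN3 and the bases before it, at 34.2% ± 31.7 (SD, n = 6), from 0% to 68.3%. The next were chr6:87270000-87279999, inside CSN1S2, at 45.6% ± 10.1 (SD, n = 6), from 31.5% to 60.6%, and chr6:87360000-87369999 at 47.8% ± 6.77 (SD, n = 5). The highest was chr6:87350000-87359999 at 85.8% ± 16.9 (SD, n = 6), directly before the low bins at the CSN3 end. The next highest were chr6:87210000-87219999 at 83.0% ± 13.2 and chr6:87160000-87169999 at 82.4% ± 19.7 (SD, n = 6 each), both outside the 4 casein genes. The 97.46 kb between CSN1S2 and CSN3 were at 68.6% ± 5.11 (SD, n = 6) in mammary gland and 80.3% ± 11.4 (SD, n = 9) in liver. The 74.4 kb between CSN2 and CSN1S2 were at 67.6% ± 12.7 in mammary gland and 65.2% ± 32.7 in liver, and the 20.4 kb between CSN1S1 and CSN2 were at 74.6% ± 11.4 in mammary gland (SD, n = 6) and 75.3% ± 42.5 in liver (SD, n = 5). Low bins were not limited to the genes or the cluster. In the flank after CSN3, chr6:87540000-87549999 had a level of 46.7% ± 26.4 and chr6:87590000-87599999 of 44.8% ± 33.8 (SD, n = 6 each) in the heifers, while the other bin that lies mostly in CSN1S2, chr6:87260000-87269999, was at 61.2% ± 16.0 (SD, n = 6). Bins were picked by their level, and no test was run of one bin against another.

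The casein gene bodies were less methylated than the rest of the cluster in most heifers and more methylated in most calves. Over the 4 bodies together the heifers had 63.0%, 63.2% and 53.5% in IUCL-H 1 to 3 and 58.6%, 33.3% and 56.3% in IUHT-H 1 to 3, on 19 to 42 positions each. The rest of the cluster had 62.1%, 69.5% and 72.1% in IUCL-H and 69.0%, 66.3% and 67.5% in IUHT-H. The bodies were thus lower in 5 of 6 heifers, by 13.1 points ± 11.7 on average (SD, n = 6), and IUCL-H 1 was 0.969 points higher. In the 8 calves with any position in a body the order was the other way in 7, with a mean difference of 16.8 points ± 18.0 (SD, n = 8). However, 6 of these calves had 1 to 6 positions there and only IUCL-B 4 and 5 had more, 13 and 27. In these better covered calves the bodies were higher by only 2.81 points (IUCL-B 4) and 6.56 points (IUCL-B 5). CSN1S2 alone held 82 of the 175 heifer positions and 32 of the 61 calf positions in the bodies, so the sums are not separate from that gene. In IUHT-H 2, the heifer with the lowest level in the bodies, 17 of 31 positions lay in CSN3, at 28.4%. Because the 4 genes were summed by choice, no p is given for these sums, and they were not set beside other genes of the genome.

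CSN1S2, the alpha-s2 casein gene, was the best covered of the 4 and the only one with enough positions for a test between the tissues. Its level in mammary gland was 45%, 56.0% and 54.2% in IUCL-H 1 to 3 and 57.7%, 40.9% and 62.1% in IUHT-H 1 to 3, on 10 to 22 positions. Among the calves with at least 5 positions it was 80.0% in IUCL-B 1, 100% in IUCL-B 4 and 100% in IUCL-B 5, on 5, 6 and 12 positions. No heifer reached the lowest of these calves. The mammary mean was 52.6% ± 8.06 (SD, n = 6) and the liver mean 93.3% ± 11.5 (SD, n = 3), a difference of -40.7 points (two-sided exact permutation test, p = 0.0119, the smallest that 6 against 3 animals can give). All 3 of these calves were in utero cooled.

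The calves with fewer positions in CSN1S2 were not all alike. IUCL-B 3 had 100% on 3 positions, and IUCL-B 2 and IUHT-B 5 had 100% on 1 position each. IUHT-B 2 had 50.0% on 4 positions although 20 of its 22 calls were methylated, because its 2 unmethylated positions had 1 read each. IUHT-B 3 and 4 listed no position in the gene. With the requirement lowered to 3 positions the difference was -33.4 points (6 heifers against 5 calves, exact p = 0.0152), and with 1 position it was -37.4 points (6 against 7, exact p = 0.00466). IUHT-B 2 then fell inside the range of the heifers. Both requirements were chosen after seeing the data.

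Pooled over animals, 60 of 113 calls in CSN1S2 were methylated in mammary gland (53.1%, Wilson 95% interval 44.0% to 62.0%) and 203 of 206 in liver (98.5%, 95.8% to 99.5%). Of these liver calls 65 came from 1 position, chr6:87271539, in IUCL-B 2, and all were methylated. A further 17, 14, 13, 12 and 12 came from 1 position in 1 calf each, again all methylated. The liver interval takes all calls as independent, which was not tested. The tissues mostly listed different positions. Of the 6 positions of the gene listed in both, the calves had 41 of 41 calls methylated and the heifers 8 of 19. At chr6:87266581 and chr6:87266587 the heifers had 0 of 3 methylated calls each, from 2 heifers, against 1 of 1 each in the calves. Whether the same reads covered both positions was not tested. At chr6:87274523 the heifers had 3 of 5 where 1 calf had 13 of 13. At chr6:87279317 they had 1 of 1 where 1 calf had 14 of 14. At chr6:87269517 the heifers had 3 of 4 methylated calls and the calves 9 of 9.

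A difference of this size was rare among stretches of the same length, which were not matched to the gene on coverage. CSN1S2 had 5, 6 and 12 positions in the 3 calves against a minimum of 5, and levels on few positions vary more. How rare the difference is among equally sparse windows was not tested. Of 63876 windows of 18.5 kb with at least 5 positions in the same 6 heifers and 3 calves, 13, CSN1S2 included, had a difference of -40.7 points or lower (0.0204%), and the median was -3.39 points. This rank holds for the minimum of 5 positions only. It was not redone with 3 positions, which let in IUHT-B 2 and gave the gene a difference of -33.4 points. Windows in which all 6 heifers lay below these 3 calves were common, at 12.7%, so the separation alone did not set the gene apart. The mammary level alone was less unusual, since 7.08% of 136538 windows were at or below 52.6%.

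**Figure D3:**
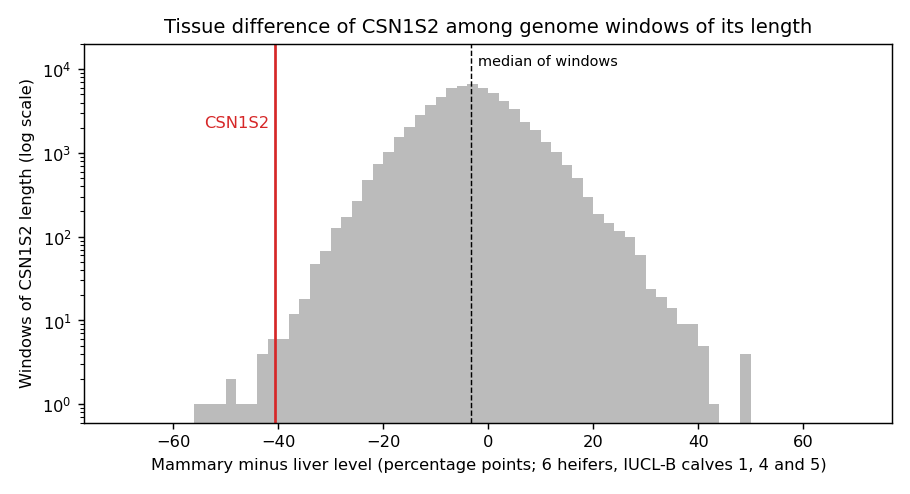
Number of genome windows of CSN1S2 length (log scale) by the mammary minus liver difference in percentage points, over the 6 heifers and IUCL-B 1, 4 and 5. CSN1S2 (red line, -40.7) lies in the lower tail, and the dashed line marks the median of -3.39.

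The other 3 genes had too few positions in the calves for a test, as fewer than 2 calves listed 5 positions in any of them. In CSN3, the kappa-casein gene, the heifers had 75%, 79.2% and 16.7% in IUCL-H 1 to 3 and 64.3%, 28.4% and 70.0% in IUHT-H 1 to 3, on 4 to 17 positions. The pooled calls were 35 of 65 methylated in mammary gland (53.8%, Wilson 95% interval 41.9% to 65.4%) and 20 of 22 in liver (90.9%, 72.2% to 97.47%), of which 16 calls came from IUCL-B 5. With each position weighing alike the level was 55.6% ± 26.3 (SD, n = 6) in mammary gland and 70.8% ± 47.9 in liver (SD, n = 4, all IUCL-B), from 0% to 100%. The heifers spread widely, and both IUCL-H and IUHT-H held a low animal.

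CSN2, the beta-casein gene, had 66.7%, 83.3% and 100% in IUCL-H 1 to 3, on 6, 6 and 1 positions, and 42.9%, 50.0% and 25% in IUHT-H 1 to 3, on 7, 2 and 4 positions. The 3 heat stressed heifers lay below the 3 cooled heifers, as they did in 4.24% of 299374 windows of 8.52 kb with a position in every heifer. Only IUCL-H 1, IUCL-H 2 and IUHT-H 1 met the minimum of 5 positions, no test was made, and CSN2 was 1 of 4 genes looked at. The pooled calls of CSN2 were 15 of 28 methylated in mammary gland (53.6%, Wilson 95% interval 35.8% to 70.5%) and 8 of 9 in liver, all from IUCL-B 4 and 5.

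CSN1S1, the alpha-s1 casein gene, was the least covered in the heifers, with 1 to 6 positions each. Its level was 100%, 40% and 100% in IUCL-H 1 to 3 and 100%, 0% and 33.3% in IUHT-H 1 to 3. The pooled calls were 14 of 22 methylated in mammary gland (63.6%, Wilson 95% interval 42.9% to 80.3%) and 58 of 73 in liver (79.5%, 68.8% to 87.1%), so these intervals overlapped. Of the 15 unmethylated liver calls, 12 came from 1 position, chr6:87143648, in IUCL-B 5. With each position weighing alike the liver level was 95.2% ± 11.7 (SD, n = 6 calves, 1 to 7 positions each) against 62.2% ± 43.5 (SD, n = 6) in mammary gland. In the other 3 genes the liver calls were fewer than in CSN1S2, and the 2 positions of CSN1S1, 1 of CSN2 and 3 of CSN3 listed in both tissues held 10 of 13 methylated calls in mammary gland and 16 of 20 in liver.

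**Figure D4:**
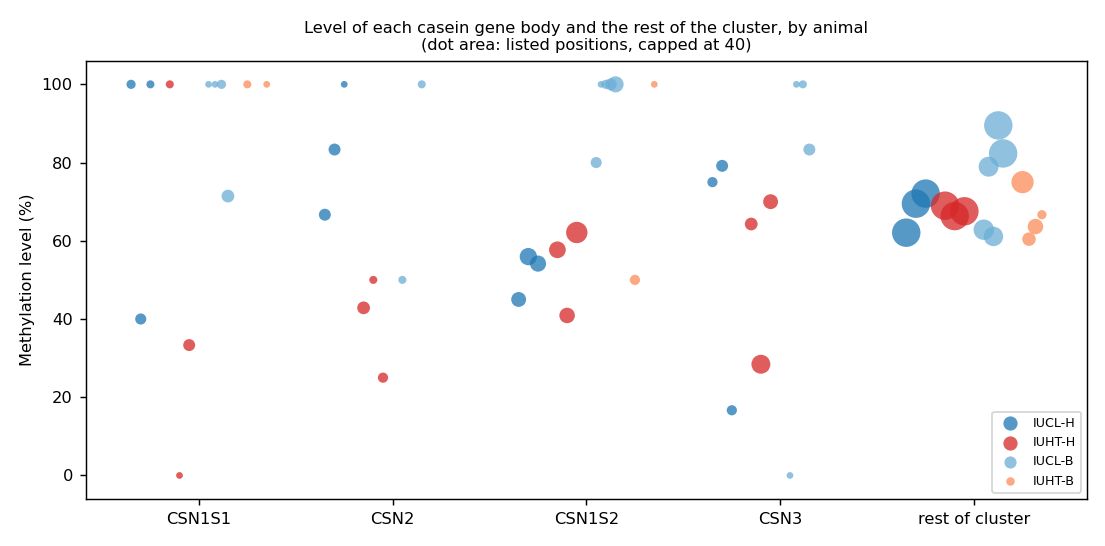
Methylation level (%) of each casein gene body and of the rest of the cluster, 1 dot per animal, coloured by group; dot area shows the number of listed positions. In CSN1S2 the 6 heifers lie between 40.9% and 62.1%, 6 of 7 calves between 80.0% and 100%, and IUHT-B 2 at 50.0%. The calves there have 1 to 12 positions each, and the other genes also rest on few positions.

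Little of the sequence next to the gene starts was measured. Within 1500 bases of the start the heifers together listed 3 positions for CSN1S1, 3 for CSN2, 5 for CSN1S2 and 4 for CSN3. Of the calls at these positions 1 of 6, 2 of 5, 3 of 6 and 4 of 9 were methylated. In the calves 2 of 2 calls were methylated for CSN1S1, 15 of 16 for CSN2 and 0 of 5 for CSN1S2 over the same distance, and no position was listed for CSN3. In the wider stretch from 5 kb before to 1 kb after the start the pooled mammary calls were 7 of 14 methylated for CSN1S1, 14 of 25 for CSN2, 20 of 34 for CSN1S2 and 17 of 37 for CSN3 (45.9%, Wilson 95% interval 31.0% to 61.6%). The liver calls were too few to set beside them for CSN1S1 and CSN3, at 8 and 3 calls. For CSN2 the liver had 20 of 187 methylated calls, of which 166 unmethylated calls came from 1 position, chr6:87191866, in IUHT-B 3. For CSN1S2 it had 24 of 30. These counts leave the level at the gene starts undetermined in both tissues.

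The treatment comparison asked whether gestation under heat stress changed the cluster within a tissue. The mammary level of the cluster was 64.7% ± 3.17 in IUHT-H against 66.8% ± 4.06 in IUCL-H (SD, n = 3 each). The difference of -2.10 points was below either SD (exact two-sided permutation p = 0.5), and it ran from -4.42 points without IUCL-H 1 to -0.332 points without IUHT-H 2. Its direction turned with at least 5 reads per position, at 4.62 points (2 IUHT-H against 3 IUCL-H). With 3 against 3 animals the smallest p is 0.1, so a call was not possible by this test. Over all 9844 windows limma called 0 between IUHT-H and IUCL-H (percent called 0; 96 windows had an unadjusted p under 0.05), and the casein window had a difference of -1.96 points (SE 3.46, limma adjusted p = 1.00). CSN1S2 was at 53.6% ± 11.2 in IUHT-H and 51.7% ± 5.88 in IUCL-H (n = 3 each, exact permutation p = 0.800). With 1 heifer omitted that difference ran from -2.41 to 8.20 points, so its direction was not stable. With every call weighing alike the difference was 9.86 points (56.8% against 46.9%, exact permutation p = 0.3).

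In bins of 10 kb, 10 of the cluster's 27 had 5 positions in every heifer. IUHT-H was higher in 5 of them and lower in 5, with differences from -13.8 to 19.6 points and standard errors of 7.16 to 13.8 points. None was called with limma, and 0 of 203028 bins of the genome were called (8518 with an unadjusted p under 0.05). Of the cluster's bins 0 had an unadjusted p under 0.05, against 2 without weights and 1 with every call weighing alike. Over the genome 10228 of the 203028 bins had one without weights and 8594 with every call weighing alike. The lowest unadjusted p in the cluster with weights was 0.0653, at chr6:87210000-87219999 (limma adjusted p = 1.00). At the 9 positions listed in every heifer 58 of 82 calls were methylated in IUCL-H and 55 of 71 in IUHT-H, and 4 of the 9 were fully methylated in both. The deepest of them, chr6:87134005 before CSN1S1, had 9 of 22 methylated calls in IUCL-H and 3 of 5 in IUHT-H.

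**Figure D5:**
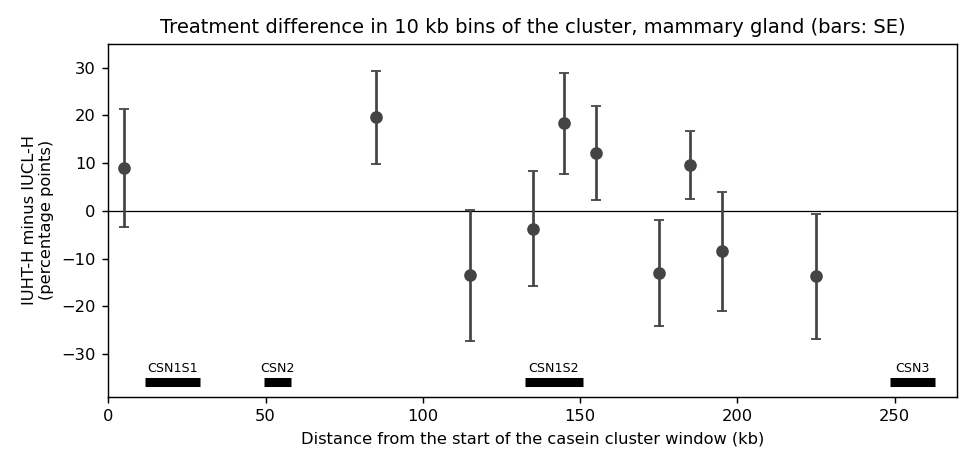
IUHT-H minus IUCL-H difference (percentage points, bars are SE) in the 10 bins of 10 kb of the cluster that were tested, against distance from its start in kb, with the 4 genes as black bars. The differences fall on both sides of 0, from -13.8 to 19.6 points.

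The liver level of the cluster was 68.9% ± 6.68 in the 4 IUHT-B calves against 77.5% ± 11.04 in the 5 IUCL-B calves (SD), and the groups overlapped. The difference was -8.61 points (exact two-sided permutation p = 0.214). It was -15.6 points with positions of at least 2 reads (exact p = 0.159), -18.7 points with at least 5 reads (exact p = 0.0794) and -2.39 points without IUCL-B 4 and 5 (exact p = 0.743). The IUHT-B calves listed 54 positions in all against 290 in IUCL-B, and treatment and coverage cannot be told apart among the best covered calves, since IUCL-B 4 and 5 had both the most positions and the highest levels. With 3 positions required, limma gave the casein window -12.5 points (SE 7.73, adjusted p = 0.453), and without IUCL-B 4 and 5 -0.748 points (SE 7.32, adjusted p = 0.972). Of 9600 windows 0 were called (percent called 0; 1463 with an unadjusted p under 0.05). The treatment differences of the 2 tissues themselves differed by 6.52 points (two-sided exact permutation of the treatment labels within each tissue, p = 0.383).

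No single cytosine of the cluster was tested for treatment. The study's thresholds were more than 10 reads, a difference of at least 15 points and a q-value of 0.2 or less. The read minimum was applied here in every animal of a tissue, a stricter reading than the study may have used, and no position of the cluster or its flanks met it. Elsewhere the same logistic regression tested 18486 cytosines in mammary gland and called 1.54% as differentially methylated cytosines, and it tested 900 in liver and called 33.1%. That regression takes every read as an independent molecule. With an F test that lets the calves or heifers of a group vary beyond this, 0 were called in mammary gland and 57 in liver (6.33%). Under this minimum the deposited depth does not show whether single CpGs of the casein genes differed between IUHT and IUCL.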

How the data were processed

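The authors trimmed 50-base single-end RRBS reads with Trim Galore and mapped them with Bismark in its post-bisulfite mode. The submitters' processing notes name Trim Galore 0.4.4, Bismark 0.17.0 and UMD3.1, while the study's methods give other versions and UMD3.1.1. The deposited files list, for each cytosine position, the count of methylated and of unmethylated calls and the percent methylated, for 1 animal each. Every percent was checked against its counts and matched within 1e-06 points, and no file repeated a position.

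Levels of regions were means over listed positions, positions of opposite strands apart. Single values were compared by two-sided exact permutation or sign-flip tests over animals (Python 3.11.15). Windows of 270 kb and bins of 10 kb were fitted with limma 3.58.1, the number of positions as weight and Benjamini-Hochberg adjustment over all windows of chromosomes 1 to 29 and X. Windows needed 10 positions in every animal, bins and genes 5 (for bins between tissues, in every heifer and 2 calves of each group). Single cytosines were compared between treatments with a logistic regression on their counts and a likelihood-ratio test. The fits were tested on simulated data that held counting noise only. Those runs had no added variation between animals, so they do not show how the fits treat it. Named were the 4 genes, every called bin and, as a description, the 3 lowest and 3 highest bins in the heifers. The members and lists were chosen with earlier results of these data known. Alternatives covered read minimums, calls as weights, merged strands, shared positions, flank choice and omitted animals. Other milk protein genes were not analysed here, and RNA was not used here. Separate animals were the replicates.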

Additional observations from a re-analysis of the deposited data

Results flagged for a closer look

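Each calf group, of 4 or 5 calves, was checked on its cluster level, flank level and their difference, 6 checks in all. An animal far from the others was found in 2 of them, and chance alone marks about 1 check in 20. The checks reuse the same calves, and the difference is computed from the 2 levels, so they are not independent. In IUCL-B, calf 2 had a flank level of 94.0% where the other 4 had 80.9% to 83.1%. In IUHT-B, calf 3 had a cluster minus flanks difference of -14.6 points where the other 3 had -11.9 to -11.7 points, so that the gap was small in size, and this calf listed 8 positions in the cluster.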

How the results depend on the processing

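The tissue difference of CSN1S2 kept its direction and its side of 0.05 under calls as weights, merged strands, lower position minimums and the omission of any 1 animal (from -47.4 to -37.4 points). It could not be computed with read minimums, shared positions or without IUCL-B 4 and 5. The lower mammary cluster lost its call against the flanks with at least 2 reads (-5.28 points), at shared positions (-0.503) and against the left flank alone (-6.18). With at least 5 reads (-21.0) or any 1 heifer omitted (-8.65 to -6.70) only 5 animals were left, which cannot reach 0.05. In liver the call was lost with calls as weights (-3.13), at least 5 reads (-10.4), shared positions (-11.4), the right flank alone (-4.02) and, added after seeing the data, without IUHT-B 3 and 5 (-8.19). The mammary minus liver difference of the cluster minus flanks turned with calls as weights (-4.79), at least 5 reads (-10.6) and the right flank alone (-5.09), gained a call without IUCL-B 4 and 5 (5.60), and reached 10.9 at shared positions and 8.21 with the left flank alone, neither called. The tissue difference of the cluster turned at shared positions (3.18), was -15.2 with at least 5 reads and -4.09 without IUCL-B 4 and 5, neither called, and was -9.51 to -5.82 with 1 animal omitted, called only without IUHT-B 3. The IUHT-H minus IUCL-H difference turned with at least 5 reads (4.62) and was -4.42 to -0.332 with 1 heifer omitted, and that of CSN1S2 ran from -2.41 to 8.20. The IUHT-B minus IUCL-B difference ran from -12.1 (without IUCL-B 1) to -5.51 (without IUCL-B 4) with 1 calf omitted. The cause was not tested in any of these.

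No pairing by calf number was seen, as deviations from the group means over 7006 windows correlated at -0.0216 to 0.0259 for the 4 shared numbers. Windows could rest on as few as 10 positions in a calf, so this check could miss a pairing. With the replicate block the IUHT-B minus IUCL-B difference of the cluster was -12.1 points (exact sign-flip p = 0.125, 4 pairs), 0 windows were called, and 295 liver cytosines were called. Called windows of 270 kb between tissues, 1309 in all, were 715 with calls as weights, 526 with 3 times the minimum of positions, 752 without IUCL-B 4 and 5, 2097 with 3 positions, 2379 with 3 positions and no weights, and 453 (without IUHT-B 2; 825 without IUHT-B 4) to 1532 with 1 animal omitted. Windows between IUHT-B and IUCL-B, 0 in all, were 60 with no weights, 264 without IUCL-B 4 and 5, and with 3 positions 1 with no weights and 288 without IUCL-B 4 and 5. Bins between tissues, 2832 in all, were 5468 with no weights, 984 with calls as weights, 593 with 3 times the minimum, and 1113 (without IUHT-B 2; 1515 without IUHT-B 3, 1501 without IUHT-B 4) to 3040 with 1 animal omitted. Called cytosines in mammary gland, 285 in all, were 475 with at least 5 reads, 122 with more than 20, 0 with an overdispersion F test, 34 at 25 points, 104 at a q of 0.05, and 284 to 453 with 1 heifer omitted (453 without IUCL-H 1). In liver, 298 in all, they were 636 with at least 5 reads, 139 with more than 20, 57 with the F test, 157 at 25 points, and 301 to 489 with 1 calf omitted (489 without IUHT-B 5). None of these counts held the casein window or a bin or cytosine of the cluster. Depth limits the gene starts and CSN1S1, CSN2 and CSN3, whose listed positions per calf are too few for a test.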
